A study of Arabidopsis thaliana with 9 samples.

Results

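The members described here are the 43 probe sets, of 22810 on the Affymetrix ATH1 array, whose signals were lower in leaves of both calpain transgenic Arabidopsis lines than in wild-type leaves. They were chosen from the deposited signals themselves: all 6 signals of the 2 lines had to lie below all 3 wild-type signals, the wild-type mean had to reach 50 and be at least 1.6 times the mean of each line, and the means of the 2 lines had to lie within 1.5 times of each other. Control probe sets and a number of gene families by symbol were set aside beforehand, although no probe set with such a symbol met the other limits. Members with no listed gene could not be screened in this way and may belong to those families. Because these values chose the members, the differences below are a description of the members and no test of them.

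The series holds 9 arrays of leaf RNA from plants at growth stage 1.14, 3 in each of 3 groups. In the group labelled 32OE, the DEK1 locus, At1g55350, was knocked out by a T-DNA insertion and the plants carried a transgene labelled ADEK1 calpain, overexpressing. Plants of the group labelled 32null carried the same T-DNA mutation with a transgene labelled ADEK1 calpain null; what null means is not given. The Col group was wild-type Col-0, which is also the background of both lines. The labels give neither the promoter of the transgenes nor the number of independent transformants behind a line. All plants were cold-treated as seed for 3 days, moved to soil 7 days after plating and grown 6 to a pot at 21 °C in short days. Values are MAS5 signals, which summarise the probes of a probe set on a linear scale, so a level can be compared between arrays but not between probe sets. Nothing in the labels says that replicates came from separate plants or pots.

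DEK1 is the plant member of the calpains, a family of calcium-dependent cysteine proteases. It is a membrane protein whose cytoplasmic end holds the calpain protease, and it is required for the formation and upkeep of the epidermis and for the balance of cell division and cell expansion in leaves. The members with 1 listed gene are described in an order set by hand from the known roles of single genes, with no test of any theme, and most members list no single gene. A leaf sample mixes many cell types, and fewer cells of a type and less RNA per cell cannot be told apart.

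Of the 22746 probe sets that are not controls, 637 (2.8%) had all 6 transgenic arrays below all 3 Col arrays. Of the 9723 with a Col mean of at least 50, 447 (4.6%) did. The limit on the fold left 51 of these and the limit on the ratio of the lines left 43. The annotation lists 1 gene for 12 members, several for 7 and none for 24, and all 12 single genes were found in the TAIR10.1 RefSeq table. A single gene was listed for 27.9% of members, against 59.2% of all probe sets, and none for 55.8%, against 38.6%. Several genes were listed for 16.3% of members, against 2.21% of all probe sets. Of the members, 18.6% were of the types that read more than 1 transcript (names ending in _s_at or _x_at), against 4.71% of all probe sets. The shares of all probe sets were not limited by the Col mean.

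Across the members, the mean signal ran from 17.7 to 803 in 32OE leaves, from 21.5 to 730 in 32null leaves and from 63.0 to 1488 in Col leaves. The Col mean was 1.6 to 6.42 times the 32OE mean, with a median of 2.15, and 1.6 to 5.27 times the 32null mean, with a median of 1.95. Both folds reached 2 for 15 members and 3 for 4. The lowest Col signal was 1.00 to 3.65 times the highest transgenic signal, with a median of 1.2.

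**Figure D1:**
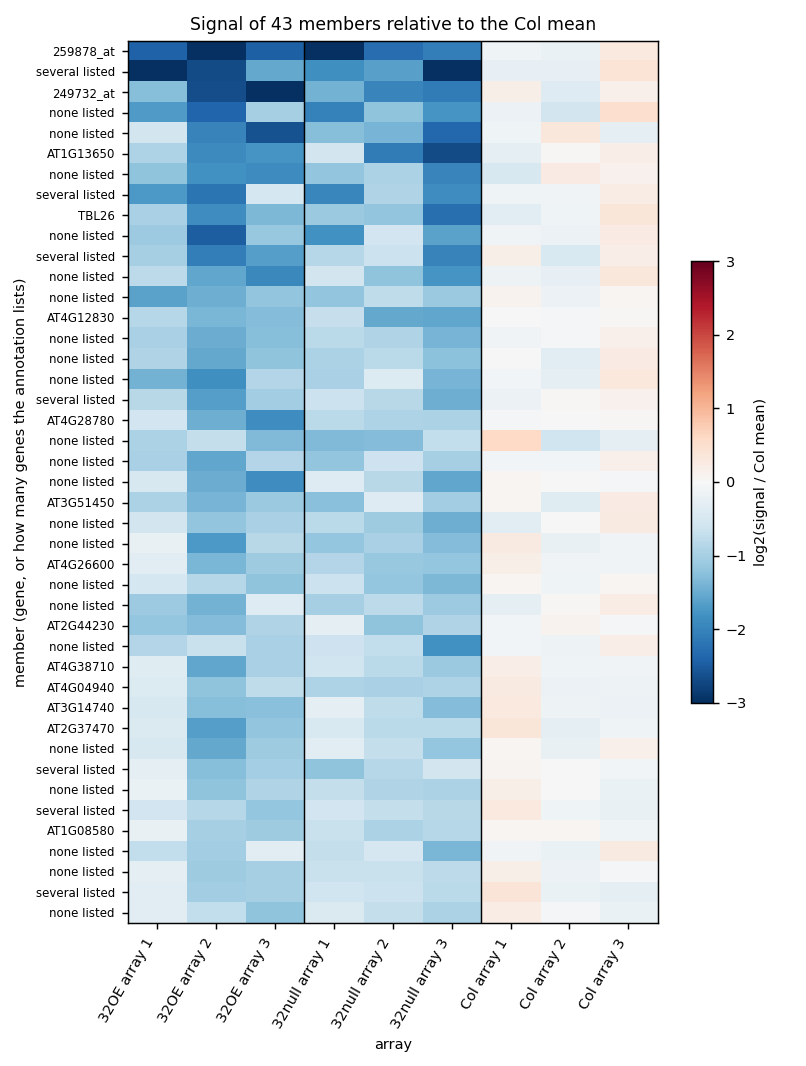
Each row is 1 of the 43 members and each column 1 array, with 32OE arrays at the left, 32null arrays in the middle and Col arrays at the right. Colour gives log2 of the signal over the member's Col mean. Rows run from the largest to the smallest ratio of the Col mean to the mean of the 6 transgenic arrays, 5.79 at the top and 1.63 at the bottom.

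Taking first the genes related to wall or metabolic enzymes, TBL26 (AT4G01080) belongs to the TRICHOME BIREFRINGENCE-LIKE family, whose studied members add acetyl groups to wall polysaccharides. TBL26 had signals of 54.2, 29.2 and 41.8 in 32OE leaves and 49.6, 47.2 and 22.4 in 32null leaves, against 85.4, 97.8 and 138 in Col leaves. The 6 transgenic signals overlapped each other throughout, and the Col arrays stood apart from them. On the scale of log2(signal + 3.63), TBL26 differed from Col by -1.30 in 32OE leaves and by -1.39 in 32null leaves (SE 0.29 each).

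AT4G28780 encodes an esterase or lipase of the GDSL type, a large plant family that includes enzymes of cutin, the polyester of the cuticle. AT4G28780 had 202, 109 and 83.3 in 32OE leaves and 173, 160 and 158 in 32null leaves, against 288, 306 and 311 in Col leaves. The 32null arrays were close together (SD 8.12), whereas the 32OE arrays were spread (SD 62.2) with array 1 the highest. Its log2 difference was -1.27 for 32OE and -0.87 for 32null leaves (SE 0.24 each).

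AT4G12830 encodes an enzyme with an alpha/beta hydrolase fold. It had 43.2, 30.3 and 31.6 in 32OE leaves and 48.4, 26.8 and 26.4 in 32null leaves, against 79.1, 74.3 and 80.1 in Col leaves. Array 1 was the highest of its group in both lines, and every transgenic signal stayed well under the lowest Col signal. AT3G51450 is related to strictosidine synthase, an enzyme of alkaloid synthesis known from other plants. It had 99.0, 72.8 and 89.2 in 32OE leaves and 81.0, 146 and 93.2 in 32null leaves, against 201, 149 and 226 in Col leaves. The second array of 32null and of Col nearly touched, so the separation of AT3G51450 rests on a small margin.

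Next come AT4G26600, AT4G38710 and AT4G04940, of which the first 2 are related to proteins acting on ribosomal RNA and in translation. AT4G26600 encodes a methyltransferase of the NOP2 type, which in yeast acts on ribosomal RNA in the nucleolus. It had 55.9, 26.9 and 33.2 in 32OE leaves and 38.1, 31.8 and 31.5 in 32null leaves, against 79.1, 65.5 and 65.7 in Col leaves. The log2 difference of AT4G26600 was -0.86 for 32OE and -0.98 for 32null leaves (SE 0.22 each), and the 32OE array numbered 1 was the nearest to Col.

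AT4G38710 is related to the plant translation initiation factor eIF4B, which helps messenger RNA unwind for the ribosome. It had 238, 105 and 156 in 32OE leaves and 202, 175 and 142 in 32null leaves, against 351, 283 and 288 in Col leaves. The 2 lines overlapped and the Col arrays lay above both. AT4G04940 encodes a protein with WD repeats. It had 74.5, 42.6 and 58.5 in 32OE leaves and 52.5, 50.5 and 52.0 in 32null leaves, against 120, 88.4 and 88.6 in Col leaves. The 32null arrays of AT4G04940 had an SD of 1.04 and lay inside the range of the 32OE arrays.

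A histone gene, a zinc finger gene and a pair of probe sets for the histone H4 family follow. AT2G37470 encodes a histone H2B, 1 of the core proteins around which DNA is wound. It had 214, 92.0 and 128 in 32OE leaves and 209, 166 and 164 in 32null leaves, against 368, 234 and 263 in Col leaves. The arrays numbered 1 were the highest in all 3 groups, and the log2 difference was -1.04 for 32OE and -0.65 for 32null leaves (SE 0.26 each).

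AT3G14740 encodes a protein with a PHD-type zinc finger, a fold found in proteins that read histone modifications. It had 130, 74.4 and 75.1 in 32OE leaves and 147, 106 and 73.7 in 32null leaves, against 219, 163 and 159 in Col leaves, again with array 1 the highest in each group. The probe sets 266226_at and 252562_s_at list the same 8 genes, all of the histone H4 family, so they read that family and no single gene, and they do not count as separate transcripts. The probe set 266226_at had 206, 171 and 136 in 32OE leaves and 206, 188 and 173 in 32null leaves, against 375, 280 and 265 in Col leaves. The probe set 252562_s_at had 462, 279 and 288 in 32OE leaves and 378, 367 and 331 in 32null leaves, against 757, 500 and 470 in Col leaves. In both, Col array 1 was far above the other 2 Col arrays, and the margin between the lowest Col and the highest transgenic signal was small in 252562_s_at.

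For the other 3 single genes no role is given here. AT1G13650 had the largest ratio of the 12, with 66.8, 34.0 and 36.9 in 32OE leaves and 86.8, 29.6 and 19.7 in 32null leaves, against 105, 130 and 146 in Col leaves. The 32null array numbered 1 lay far above the other 2 arrays of that line and nearest to Col. AT2G44230 had 53.6, 49.3 and 64.9 in 32OE leaves and 99.0, 52.3 and 64.7 in 32null leaves, against 114, 130 and 117 in Col leaves. AT1G08580 had 210, 123 and 116 in 32OE leaves and 155, 127 and 136 in 32null leaves, against 253, 257 and 224 in Col leaves. In both, 1 array numbered 1 came close to the Col range, that of 32null for AT2G44230 and that of 32OE for AT1G08580.

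**Figure D2:**
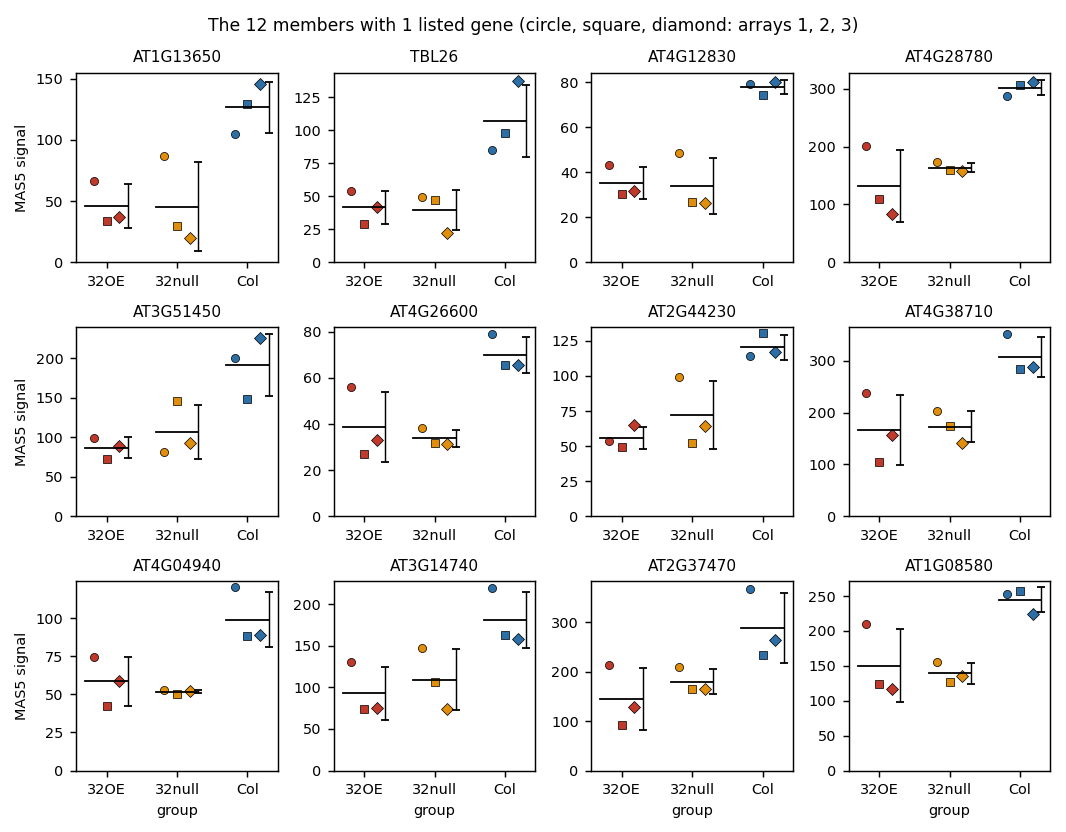
MAS5 signals of the 12 members with 1 listed gene, 1 panel each, with the 3 arrays of a group as separate points, the group mean as a line and the SD as a bar (n = 3). In every panel the 6 points of 32OE and 32null lie under the 3 Col points, as the choice of members required. In 11 of the 12 panels the highest transgenic point is an array numbered 1. That count is for these 12 members alone. In some members not shown, the highest transgenic signal was on an array with another number. Over all 43 members, array 1 was the highest of its group for 32 in 32OE and 26 in 32null leaves.

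The 2 members with no listed gene and the largest ratios were 259878_at and 249732_at. The probe set 259878_at had 21.1, 11.1 and 20.8 in 32OE leaves and 14.3, 23.3 and 26.9 in 32null leaves, against 104, 98.2 and 139 in Col leaves. Its lowest Col signal was 3.65 times its highest transgenic signal, the widest gap among the 43 members. The probe set 249732_at had 114, 43.8 and 32 in 32OE leaves and 103, 70.8 and 64.4 in 32null leaves, against 313, 213 and 306 in Col leaves, with array 1 the highest in both lines. Among the 7 members that list several genes, 246340_s_at had the largest ratio, with 10.1, 18.6 and 41.3 in 32OE leaves and 33.3, 38.7 and 5.91 in 32null leaves, against 99.9, 100 and 157 in Col leaves. Its transgenic signals varied several-fold within each line, and the highest of them was well under the lowest Col signal.

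Of the 12 single genes, 6 (50%) lie on chromosome 4 by the RefSeq table, against 14.4% of the 5057 single-gene probe sets with a Col mean of at least 50. Chromosomes 1, 2 and 3 hold 2 each and chromosome 5 none, against 23.5% of those probe sets on chromosome 5. The closest pair, AT4G28780 and AT4G26600, stood 240 protein-coding genes apart, so no 2 of the 12 were neighbours.

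A linear model was fitted to all 14151 probe sets that passed a filter on low signals, and all 43 members passed it. For 32OE minus Col, 15 of 43 members were called lower at an adjusted p under 0.05 (limma, Benjamini-Hochberg), where 0.806% of all tested probe sets were called lower. For 32null minus Col, 1 member, 259878_at, was called lower, where 0.00707% of all tested probe sets were, that is 1 probe set. Of the members with 1 listed gene, AT4G28780, AT4G12830, AT3G51450 and AT2G44230 were called for 32OE. The others, TBL26, AT4G26600 and AT2G37470 among them, were called in neither comparison. Both contrasts were used to choose the members, and they share the 3 Col arrays, so nothing is read from these counts or calls. The median log2 difference of the members was -1.09 for 32OE and -0.94 for 32null leaves, beside medians of 0.01 and 0.01 over all tested probe sets.

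The number of called members turned on single arrays. For 32OE it was 39 without the 32OE array numbered 1, 24 without the 32null array numbered 1, 2 and 9 without the 32OE arrays numbered 2 and 3, and 4, 5 and 2 without the Col arrays numbered 1, 2 and 3. For 32null it was 30, 4 and 12 without the 32OE arrays numbered 1 and 2 and the 32null array numbered 1, and 0 without the Col array numbered 3. The fit pools the spread of all 3 groups. Arrays of 1 line thus also enter the other line's comparison with Col, without changing the means compared there.

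**Figure D3:**
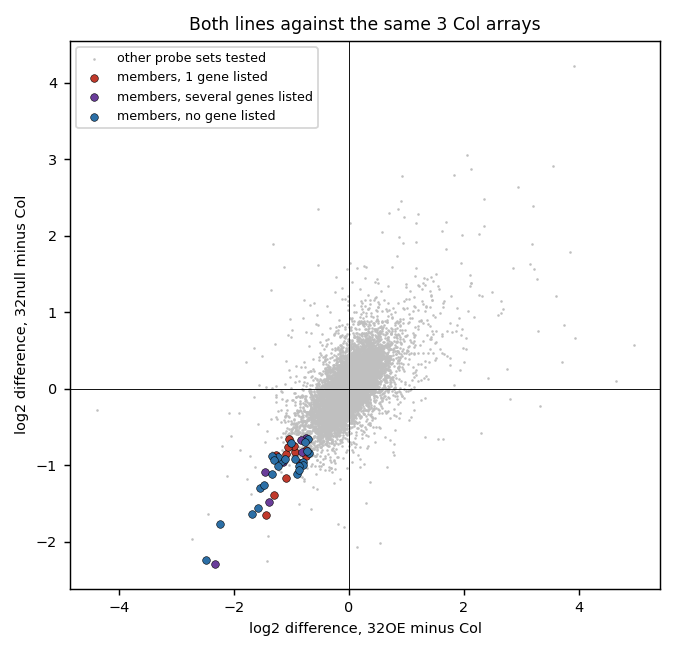
Log2 difference of 32OE minus Col on the horizontal axis and of 32null minus Col on the vertical axis for the 14151 probe sets tested, on the log2(signal + 3.63) scale. The 43 members, in colour by how many genes the annotation lists, run from -2.48 to -0.69 on the horizontal and from -2.29 to -0.65 on the vertical axis, and both axes use the same 3 Col arrays.

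The 2 lines were close to each other in the members, as the limit on their ratio required. The ratio of the 32OE to the 32null mean ran from 0.722 to 1.26 with a median of 0.956, and the direction was not fixed by the choice. The 32OE mean was the lower of the 2 in 25 of 43 members (58.1%), against 49.8% of the probe sets with a Col mean of at least 50. No member was called between the lines by limma (0 of 43 at an adjusted p under 0.05, beside 0.523% of all tested probe sets), and 0 of 43 had an unadjusted p under 0.05, beside 10.6% of all. The log2 differences of 32OE minus 32null ran from -0.48 to 0.22.

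Within the lines, the arrays numbered 1 were nearer to Col. The median over members of the log2 signal minus the Col mean of log2 signals was -0.82, -1.49 and -1.12 on the 32OE arrays numbered 1, 2 and 3, and -0.80, -0.89 and -1.28 on the 32null arrays. The corresponding medians over all probe sets with a Col mean of at least 50 lay between -0.03 and 0.01. Array 1 was the highest of its group for 32 of 43 members (74.4%) in 32OE and 26 (60.5%) in 32null leaves, against 42.7% and 38% of those probe sets. Among the Col arrays, the array numbered 3 was the highest for 23 members (53.5%), against 29.2%, and the array numbered 2 for 4 (9.3%), against 30.6%.

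The spread within a group was wider in members than over all probe sets with a Col mean of at least 50. Those probe sets include the members and were not matched to them in signal, and the rule asked for low signals in the lines. The median coefficient of variation of the members was 33% in 32OE, 26.1% in 32null and 17.4% in Col leaves, against 11.4%, 11.3% and 9.24% over the probe sets with a Col mean of at least 50. The signal of the 25S ribosomal RNA control was 160 and 167 on the arrays numbered 1 of the 2 lines and 208 to 384 on the other 7 arrays. Its part in the position of these arrays was not tested. The ratio of the 3′ to the 5′ GAPDH probe set, a measure of RNA integrity, was 1.02 to 1.15 in 32OE, 1.04 to 1.17 in 32null and 1.04 to 1.2 in Col leaves. The same ratio for actin was far higher on every array, at 12.3 to 14.0 in 32OE, 12.6 to 15.1 in 32null and 13.5 to 16.7 in Col leaves. The groups overlapped in both ratios, the highest value of each was on Col array 1, and their part in the members' values was not tested.

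To look at an array that had no part in choosing the probe sets, the rule was applied without each array in turn and the array left out was then read. Without Col array 1, 52 probe sets met the rule, and in 34 of them (65.4%) Col array 1 also lay above all 6 transgenic arrays, against 24.1% of the probe sets with a Col mean of at least 50. Without Col array 2 it was 57 of 72 (79.2%, against 15.4%), and without Col array 3 it was 56 of 74 (75.7%, against 14.2%). The same 6 transgenic arrays served the choice and the reading here, so the left-out Col arrays are the only new values. Those transgenic arrays had been chosen to be low, which by itself favours a left-out Col array above them, and the shares over all probe sets carry no such choice.

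Among the 32OE arrays, the left-out array lay below all 3 Col arrays in 48 of 84 (57.1%, against 23.2%) for array 1, 35 of 35 (against 36.1%) for array 2 and 39 of 41 (95.1%, against 38.6%) for array 3. For the 32null arrays it did so in 55 of 66 (83.3%, against 30.6%), 52 of 58 (89.7%, against 35.2%) and 33 of 34 (97.1%, against 36.2%). Here the Col arrays had been chosen to be high. The shares over all probe sets are therefore not what no change would give, no such value is at hand, and the shares are a description with nothing read from the gap between them. Among the 9 arrays left out, the share of chosen probe sets was lowest for the 32OE array numbered 1.

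**Figure D4:**
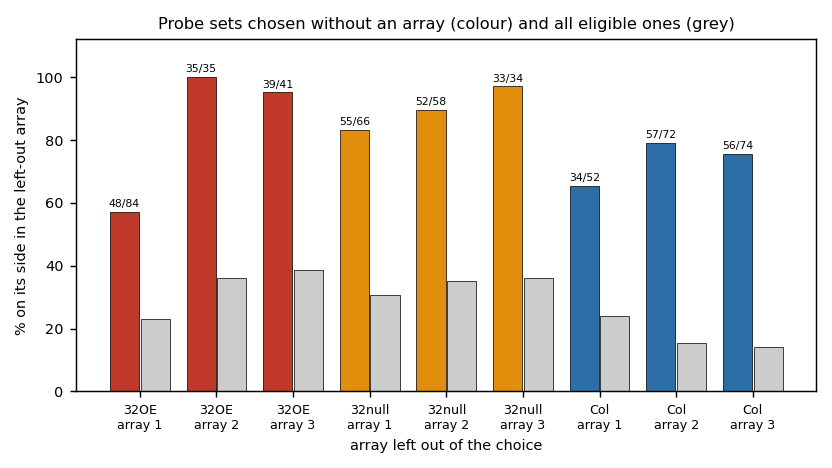
For each array left out of the choice, the coloured bar gives the percentage of the probe sets chosen on the other 8 arrays that kept to the side the rule asks for in the left-out array (below all Col arrays, or above all transgenic arrays), with the counts above it. The grey bar gives the same percentage over the 9723 probe sets with a Col mean of at least 50; coloured bars run from 57.1% to 100% and grey bars from 14.2% to 38.6%, and grey bars carry no choice on the other arrays, so they do not show what no change would give.

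The families of the members were then looked at by symbol, a choice made after the members were known. Besides TBL26, 21 other TRICHOME BIREFRINGENCE-LIKE genes had a probe set of their own and 15 passed the filter on low signals. The rule chose TBL26 for being lower in both lines, so a gap between it and the others follows in part from the choice. TBL26 itself was called in neither comparison, with adjusted p by limma of 0.0501 for 32OE and 0.0911 for 32null leaves. None of the 15 was called in either comparison by limma, with smallest adjusted p of 0.177 for 32OE and 0.541 for 32null leaves, and 1 (TBL45) and 0 had an unadjusted p under 0.05. Over all tested probe sets, that unadjusted threshold was passed by 18.1% for 32OE and 17.4% for 32null leaves. The median log2 difference of these 15 genes was -0.13 for 32OE and -0.02 for 32null leaves, and the lowest was -0.51 in 32OE leaves for TBL45, which had 195 ± 51.6 in 32OE, 269 ± 36.4 in 32null and 273 ± 24.5 in Col leaves (SD, n = 3 each).

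Histone genes recognisable by symbol numbered 7, not counting AT2G37470, which the table lists only by locus. HTB11, another histone H2B gene, had 309, 234 and 273 in 32OE leaves and 397, 332 and 315 in 32null leaves, against 475, 481 and 480 in Col leaves. The log2 difference of HTB11 was -0.82 for 32OE (SE 0.13, adjusted p = 0.0118 by limma) and -0.46 for 32null leaves (SE 0.13, adjusted p = 0.124), and 32OE arrays lay below all 32null arrays. HTB11 missed membership because its Col mean was under 1.6 times the 32null mean. HTB1, HTB2 and HTB4, the other H2B genes, had log2 differences of -0.88, -0.87 and -0.50 for 32OE and -0.57, -0.51 and -0.37 for 32null leaves, none of them called. Of the remaining 3, HTR12 (centromeric histone H3) and HON4 (a linker histone type) had -0.80 and -0.47 for 32OE and -0.34 and -0.17 for 32null leaves. HIS1-3 (a linker histone induced by drought) had 1.36 for 32OE and 1.44 for 32null leaves with a Col mean of 4.55, below the filter signal. Of these 7 genes, 1 was called lower in 32OE and 0 in 32null leaves by limma. At an unadjusted p under 0.05 limma gave 6 of 7 for 32OE, beside 18.1% of all tested probe sets, and 2 of 7 for 32null leaves, beside 17.4%. The family was looked at because members belonged to it, and its genes may vary together, so nothing is read from these counts. HTB1, HTB2, HTB4 and HTR12 were highest on array 1 in each group. For HTB2, 32OE array 1 (377) lay above Col arrays 2 and 3 (320 and 260).

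**Figure D5:**
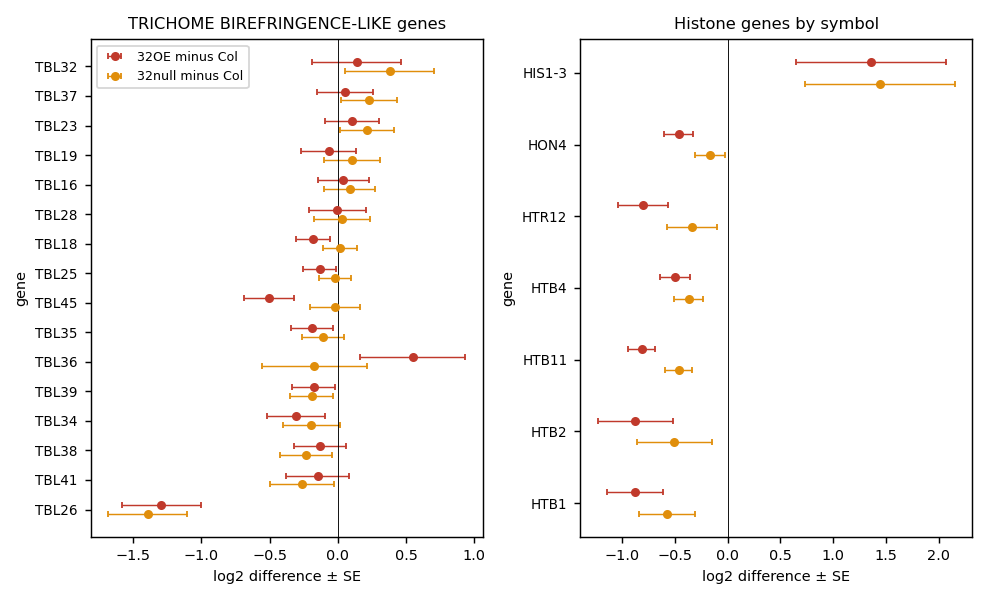
Log2 differences of 32OE minus Col and of 32null minus Col with their standard errors for the 16 TRICHOME BIREFRINGENCE-LIKE genes tested, TBL26 included, and for 7 histone genes. The rule chose TBL26 for being lower in both lines, where it lies at -1.30 and -1.39, and chose none of the other genes shown. Of the 7 histone genes, 6 lie below 0 in both lines.

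Of 3 genes of nucleolar ribosome assembly that were looked at, AT3G05060, AT3G12860 and AT1G06560, none was called. Their log2 differences lay between -0.35 and -0.10 for 32OE and between -0.65 and -0.21 for 32null leaves. These 3 are not a full list of genes with such a role, so they do not speak for the role as a whole. At an unadjusted p under 0.05 limma gave 0 of them for 32OE and 2, AT3G05060 and AT3G12860, for 32null leaves, beside the same 18.1% and 17.4% of all tested probe sets. Of 81 loci of hormone, stress, clock and cell type lists, 10 had a single-gene probe set, and none of these 10 was a member. The other loci could not be looked up, and members with no single listed gene could include some of them. None of the 10 was called by limma, and 3 had an unadjusted p under 0.05 in each comparison, where 18.1% of all tested probe sets for 32OE and 17.4% for 32null did. For 32OE these were the clock gene GI, the cold gene COR47 and the guard cell gene FAMA. For 32null leaves they were GI, the flavonoid gene UF3GT and the cold gene COR15A. In these comparisons GI was higher than in Col leaves and the others were lower. The leaf marker RCA, the Rubisco activase of mesophyll chloroplasts, had 4926 ± 363 in 32OE, 5618 ± 598 in 32null and 5277 ± 474 in Col leaves (SD, n = 3 each). The guard cell genes FAMA (43.4, 57.9 and 59.4) and GC1 (160, 189 and 186) and the root gene PYK10 (47.7, 34.3 and 25.9), as mean signals of 32OE, 32null and Col leaves, were not called in either comparison. With markers of 4 genes measured, 1 of mesophyll, 2 of guard cells and 1 of root, the cell make-up of the leaves is only partly covered. No listed marker of epidermis, phloem, xylem, trichome, meristem, seed or myrosin cells had a single-gene probe set.

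The rule has sharp limits, and values just inside and outside them were close. The members with the smallest fold were 1 with no listed gene (1.6003), AT2G37470 (1.6042) and 252562_s_at (1.6049). Just outside were SWEET17, a transporter of fructose at the vacuole, with 189, 198 and 317 as means of 32OE, 32null and Col leaves (a smaller fold of 1.599), AT1G49500 (1.594) and AT5G08180 (1.572). The Col mean of the lowest member was 63.0, and the largest ratio between the lines was 1.38.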

How the data were processed

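Leaf RNA of 3 groups was hybridised to 9 one-colour ATH1 arrays. The intensity values were deposited as MAS5 signals made in GCOS, per the submitters' processing notes; RNA came from a Qiagen kit with one-cycle biotin labelling, per the labels' protocols. The 2% trimmed mean was 100.01 on all 9 arrays, so only changes relative to the rest of an array can be seen. Detection calls were not used here; with so few arrays, precision is limited by their number.

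Groups came from the sample titles. Members were chosen from the linear signals. The members, and the lists used beside them, were chosen with earlier results of these data known. Genes were named through the platform annotation and the TAIR10.1 RefSeq table; no genome build is named for the array, so no coordinates are given. All members with 1 listed gene are named, and of those with none the 2 with the largest ratios. Roles of genes are background knowledge.

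For tests, signals were transformed as log2(signal + 3.63), the 20th percentile of the table, which understates changes of low signals. Probe sets reaching 17.6, the 40th percentile, on at least 3 arrays entered a fit by limma 3.58.1 (R 4.3.3) with 3 group means, an intensity trend and two-sided Benjamini-Hochberg adjusted p, called under 0.05. As the origin of the replicates is not given, p-values reflect only how far these samples spread, possibly for technical reasons. The fit was tested on simulated data. No 2 arrays were identical, and arrays of 1 group correlated at 0.959 to 0.986. Alternatives covered the rule's limits, pseudocount, filter, scaling, trend, weights, block and each array left out. A planned search of promoter sequences was not run, as none were used here. Figures used matplotlib 3.10.9 and Python 3.11.15.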

Additional observations from a re-analysis of the deposited data

How the results depend on the processing

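The number of members was 43. It was 69 with a fold limit of 1.5, 15 with a fold limit of 2, 107 without the arrays numbered 1 of all groups (31 of the 43 among them), and 34 to 84 when single arrays were left out, 84 without 32OE array 1, 74 and 72 without Col arrays 3 and 2 and 66 without 32null array 1. The other limits, both other scalings and the removal of probe sets of the s and x types gave 35 to 60; quantile normalization kept 41 of the 43 and scaling to the same median 42. The 15 members called lower for 32OE minus Col became 6 without a filter on low signals, where more probe sets were tested, 7 without the intensity trend, 42 with array weights and 38 when all arrays numbered 1 were dropped; they ran from 2 to 39 when single arrays were left out. The 1 member called lower for 32null minus Col became 33 with array weights, 28 in a fit of the 2 groups alone and 33 without the arrays numbered 1, and ran from 0 to 30 when single arrays were left out. Between the lines the count was 0 to 1 when single arrays were left out and 1 without the arrays numbered 1. The causes were not tested. With the replicate number as a block, 39 and 34 members were called lower for 32OE and 32null. Correlations of deviations between same-numbered arrays of different groups ran from -0.13 to 0.37, and between differently numbered ones from -0.30 to 0.27. The highest were of 32OE array 1, with 32null array 1 (0.37) and with Col array 1 (0.32), whereas 32null array 1 with Col array 1 gave -0.007. The numbers are thus not shown to pair the samples, and an effect common to arrays numbered 1 was not tested by itself. Of 1432 alternative log2 differences of named probe sets, 15 changed sign, none of them of a member, whose sign the rule fixes, or of a histone gene, and all of differences not called. RCA for 32null gave -0.077 with quantile normalization. With single arrays left out, AT3G12860 for 32OE ran from -0.27 to 0.0042, PYK10 from -0.58 to 0.96 for 32OE and from -0.26 to 0.65 for 32null, and for 32null TBL45 ran from -0.13 to 0.048, FAMA ran from -0.14 to 0.060 and GC1 from -0.35 to 0.35. Probe sets named only as just outside the rule's limits, AT1G66760 included, were not refitted by name. HTB11 was called for 32OE minus Col in 17 of 20 alternatives, with adjusted p up to 0.0742.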

Other observations

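A further 8 probe sets met every limit except that on the ratio of the lines, and in 7 of these the 32OE mean was the lower. Among them AT1G66760, of the MATE family of transporters, had means of 31.6 in 32OE, 51.5 in 32null and 118 in Col leaves. The ratio between its lines was 1.63.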
